A study of Mus musculus with 16 samples.

Results

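The 10 genes described here are widely used as readouts of Wnt/beta-catenin signalling: Axin2, Lef1, Tcf7, Sp5, Nkd1, Notum, Lgr5, Apcdd1, Rnf43 and Znrf3. They were chosen by symbol as known transcriptional targets of the pathway, with earlier results of these data known. All 10 were found once each among the 37991 rows of the deposited count table. RNA sequencing covered 16 mouse libraries. The starting cells (D0, 2 libraries) were tdMEFs, embryonic fibroblasts carrying Fsp1-Cre and a ROSA26tdTomato reporter, kept in serum-containing fibroblast medium. The Cre is driven by the Fsp1 (S100a4) promoter, so the reporter marks cells in which that promoter has been active. D4, D8 and D12 (3 libraries each) were the same cells after 4, 8 and 12 days in M9, a serum-free neural medium at lower oxygen with CHIR99021 (a GSK3 inhibitor), LDN193189 (a BMP receptor inhibitor), A83-01 (a TGF-beta receptor inhibitor), Hh-Ag1.5 (a Hedgehog agonist), retinoic acid, SMER28 (an autophagy enhancer), RG108 (a DNA methyltransferase inhibitor), Parnate (an LSD1 inhibitor) and bFGF. The ciNSLCs (3 libraries) were neural stem-like cells that M9 had produced from tdMEFs. The neural controls were SCR029, a commercial line of cortical neural stem cells taken between embryonic days 15 and 18, and priNPC, primary cortical progenitors of embryonic day 13.5, with 1 library each. All mice were of a 129xC57BL6 background except SCR029, which is C57BL6. The GSK3 inhibitor was never given alone and there was no vehicle arm, so its part in any change from D0 cannot be told apart from the other agents, the medium, the oxygen level and time in culture.

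Without a Wnt signal, beta-catenin is phosphorylated by GSK3 in a complex built on Axin and APC and is then degraded. When Wnt ligands engage Frizzled and LRP receptors, or when GSK3 is inhibited, beta-catenin enters the nucleus and works with DNA-binding proteins of the TCF/LEF family. Many of the genes it switches on restrain the pathway in turn, at the membrane, in the cytoplasm or outside the cell, which makes them convenient readouts. In neural progenitors of the embryonic cortex the pathway is known for its role in maintaining proliferation.

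The upstream sequence of members that changed is shown first, because the TCF/LEF proteins recognise a short DNA motif. The RefSeq promoter table (build GRCm38.p6, 250 bases before to 50 bases after a start site) held 6 of the 10 members, namely Axin2, Lef1, Tcf7, Sp5, Nkd1 and Rnf43, with 11 start sites in all. The motif was searched on both strands in 4 spellings, which overlap in their first 5 letters: CTTTGAT (held by 3.73% of all 32851 promoters of that table), CTTTGTT (held by 5.85%), CTTTGAA (held by 5.14%) and CTTTGTA (held by 3.63%). Sp5 held CTTTGAT and CTTTGTT at its single start site, the last of 4 Lef1 start sites held CTTTGTA, and the other 9 windows held none. At least 1 of the 4 spellings was in 16.9% of all promoters, so a match is common, and it is a description of letters and not a binding site. The 3 sequences after the first pair are given because Axin2, Tcf7 and Lef1 were all called higher at D4 with no match in these windows. Each sequence runs 5′ to 3′ on the strand of its gene, and capitals mark the motif or, where it lies on the opposite strand, its reverse complement.
Sp5, chr2:70474673-70474872, plus strand, 250 to 51 bases before the start: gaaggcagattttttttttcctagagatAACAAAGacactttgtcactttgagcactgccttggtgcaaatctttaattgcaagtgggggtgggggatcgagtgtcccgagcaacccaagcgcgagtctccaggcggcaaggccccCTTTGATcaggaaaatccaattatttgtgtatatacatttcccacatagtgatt
Lef1, last start, chr3:131156104-131156203, plus strand, 190 to 91 bases before the start: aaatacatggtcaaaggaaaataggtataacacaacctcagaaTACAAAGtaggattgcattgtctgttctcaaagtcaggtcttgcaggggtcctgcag
Axin2, chr11:108920249-108920348, plus strand, the last 100 bases before the start: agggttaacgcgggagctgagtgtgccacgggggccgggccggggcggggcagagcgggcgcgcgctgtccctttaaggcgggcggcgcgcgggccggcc
Tcf7, first start, chr11:52283015-52283114, minus strand, the last 100 bases before the start: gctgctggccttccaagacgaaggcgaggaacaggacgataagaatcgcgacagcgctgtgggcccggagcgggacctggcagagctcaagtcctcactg
Lef1, first start, chr3:131110197-131110296, plus strand, the last 100 bases before the start: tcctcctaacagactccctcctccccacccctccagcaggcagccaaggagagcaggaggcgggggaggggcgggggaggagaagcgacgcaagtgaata
The Axin2 stretch is 80% G and C, the Tcf7 stretch 63% and the first Lef1 stretch 66%. The stretch at the last Lef1 start is 41% G and C and the Sp5 stretch 45.5%. Over whole windows the median of all promoters was 52.7% G and C.

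Depth was between 29.4 and 55.5 M counts per library (M, mega), or 14.5 to 34.6 M without mitochondrial rRNA. That rRNA held 44.3% to 53% of the counts in ciNSLC, against 22.6% and 14.3% at D0. Per the sample descriptions, batch 1 held SCR029 and replicate 1 of each other group except priNPC, and batch 2 held priNPC and all replicates numbered 2 or 3. Several libraries stood apart. Replicate 1 of D4 and of D8 had summed levels of 8 fibroblast markers of 1130 and 1830 CPM, against 6360 to 9210 CPM in replicates 2 and 3 of those days and 19600 and 21600 CPM at D0. Col1a1, Col1a2, Col3a1, Thy1, Pdgfra and Pdgfrb were lowest in replicate 1 on both days, and S100a4 at D4 only. Twist2 was not, at 16.3 and 13.7 CPM against 10.5 to 15.8 CPM. Those libraries also had 52.7% and 49.7% mitochondrial rRNA, against 16.5% to 26.4% in replicates 2 and 3. The part of RNA composition was not tested. Replicate 2 of D0 had 3660 CPM over 12 myeloid markers, against 14.7 CPM in replicate 1. The 7 neural stem markers summed to 3610 to 4340 CPM in ciNSLC and 21.1 to 31 CPM at D0, in accord with both labels. At D12 these markers summed to 1130 CPM in replicate 1, against 291 and 411 CPM in replicates 2 and 3. Fabp7 held most of the sum in replicate 1 (851 CPM). Pax6 was not highest there, at 4.07 CPM against 2.26 and 4.14 CPM. The part of that library's composition in the D12 levels of the members was not tested. Levels below are CPM, counts scaled to a common library total by TMM, and the test is edgeR's quasi-likelihood F-test with p adjusted by Benjamini-Hochberg over all genes tested (17455 in the fit of D0, D4, D8, D12 and ciNSLC), called at an adjusted p under 0.05. All 10 members passed the filter on low counts. In bulk RNA, fewer cells of a type and less RNA per cell cannot be told apart.

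At D4 against D0, Axin2, Lef1, Tcf7 and Apcdd1 rose and Lgr5 fell, which is 4 members higher and 1 lower of 10 tested. Of all genes tested, 3.54% were called higher and 3.68% lower in that comparison. At D8 against D0, Axin2, Tcf7, Sp5 and Apcdd1 rose and Lgr5 fell, again 4 and 1 of 10, where 4.1% of all genes were called higher and 3.05% lower. Of these calls 4 were common to both days, Axin2, Tcf7, Apcdd1 and Lgr5, and both days were set against the same D0 libraries. By D12, Tcf7 alone was called higher and Lgr5 alone lower, 1 and 1 of 10, against 5.81% and 4.73% of all genes. The median log2 change over the members was 1.93, 2.5 and 1.04 at D4, D8 and D12, where that of all genes was 0.02, 0.02 and 0.01. With Sp5, which had no count at D0, set to its ratio over 3 counts at D0, the D4 median was 1.01 and the others were unchanged. The D4 calls other than that of Tcf7 depended on the D0 libraries. Those of Axin2 and Lef1 were lost when either D0 library was left out. Those of Apcdd1 and Lgr5 were lost without D0 replicate 2. The call of Tcf7 held in all 25 alternative fits.

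**Figure D1:**
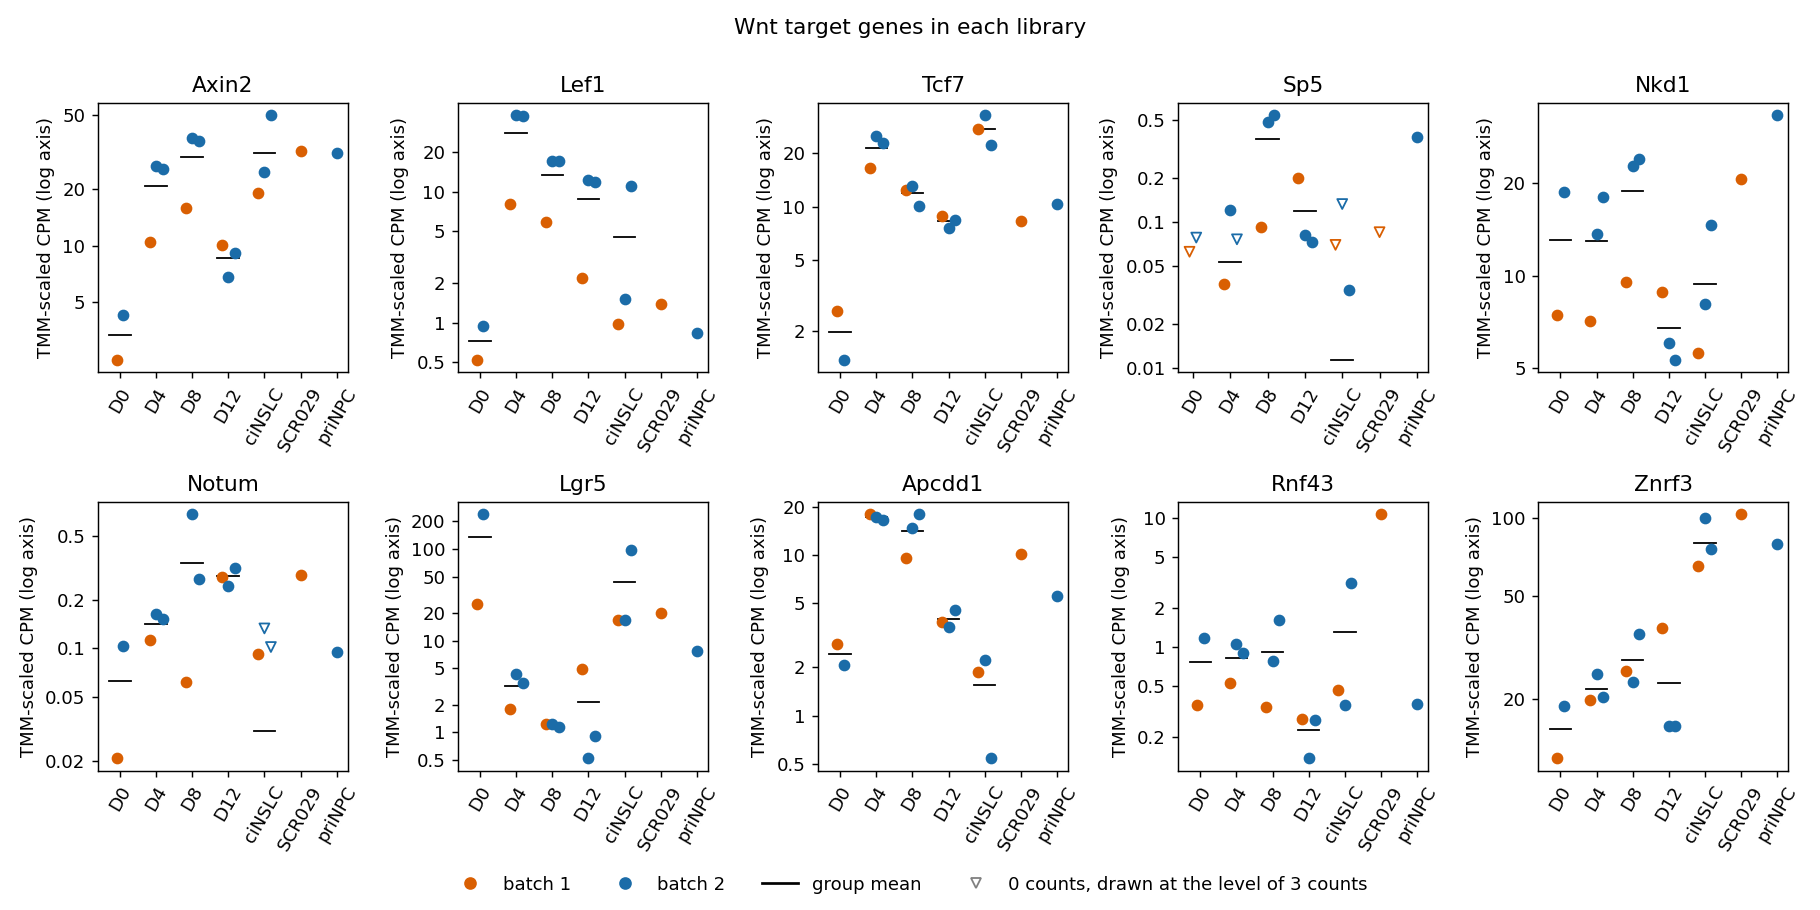
Level of each of the 10 genes in each of the 16 libraries, in TMM-scaled CPM on a log axis, by group and coloured by batch. Bars are group means, and open triangles mark libraries with 0 counts, drawn at the level of 3 counts. Axin2, Lef1, Tcf7 and Apcdd1 are higher in every D4 library than in both D0 libraries, and Lgr5 is lower in every D4, D8 and D12 library than in both D0 libraries.

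Lef1 and Tcf7 encode DNA-binding partners of beta-catenin, as do Tcf7l1 and Tcf7l2. Tcf7l1 and Tcf7l2 averaged 49.9 ± 6.93 and 69.2 ± 7.02 CPM (SD) at D0 and were not called at D4, D8 or D12. Lef1 (mm9 chromosome 3, 130813389 to 130927274) had 0.521 and 0.938 CPM at D0, 8.06, 38.4 and 38.1 CPM at D4, 5.87, 17.3 and 17.3 CPM at D8, and 2.19, 12.2 and 11.9 CPM at D12. Every treated library was above both D0 libraries, and on each day the batch 1 library was the lowest. The log2 change was 5.28 ± 1.28 (SE) at D4 with an adjusted p of 0.026. At D8 it was 4.21 ± 1.22 with an adjusted p of 0.056 and at D12 3.59 ± 1.19 with 0.075, so neither of those passed. Both passed with a replicate block, at 0.0076 for D8 and 0.018 for D12, and with a batch term, at 0.0061 and 0.015. Within batches, the raw log2 difference from D0 at D4 was 3.95 in batch 1 and 5.35 in batch 2. The D4 call of Lef1 was lost in 6 of 24 alternative fits, among them when either D0 library was left out. It was also lost, narrowly, without D4 replicate 2 or 3 (adjusted p of 0.057 in both cases).

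Tcf7 (chromosome 11, 52065873 to 52096681) had 2.58 and 1.38 CPM at D0, 16.4, 24.9 and 22.8 CPM at D4, 12.4, 13.1 and 10.1 CPM at D8, and 8.87, 7.61 and 8.47 CPM at D12. The groups did not overlap with D0 on any day, and the 3 treated groups did not overlap with one another. The log2 change from D0 was 3.42 ± 0.34 at D4 (adjusted p = 0.00016), 2.58 ± 0.32 at D8 (8e-04) and 2.06 ± 0.32 at D12 (0.0019). Each of these calls held in all 25 alternative fits, which include leaving out each library in turn. Both genes are also active in T cells, and of the T cell markers Cd3d was at most 0.0815 CPM, Cd3e at most 0.0465 CPM and Cd3g at most 0.0284 CPM in any library, with Cd2 at 0 in all 16.

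Axin2 encodes a scaffold of the beta-catenin destruction complex and is a feedback inhibitor that most Wnt-responsive tissues induce. It lies on chromosome 11 (108781663 to 108812097). It had 2.46 and 4.25 CPM at D0, 10.4, 26.6 and 25.6 CPM at D4, 15.8, 37.4 and 35.9 CPM at D8, and 10.0, 6.76 and 9.11 CPM at D12. All treated libraries were above both D0 libraries, and the D12 libraries lay below every D8 library. The log2 change from D0 was 2.64 ± 0.56 at D4 (adjusted p = 0.014), 3.15 ± 0.58 at D8 (0.0069) and 1.37 ± 0.53 at D12 (0.13, not called). The D4 call was lost in 3 of 25 alternative fits, among them those without D0 replicate 1 or without D0 replicate 2. The D8 call was lost in 1 of 25, without D0 replicate 1.

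Apcdd1 encodes a membrane glycoprotein that inhibits Wnt signalling at the cell surface. It had 2.79 and 2.06 CPM at D0, 18.1, 17.3 and 16.5 CPM at D4, 9.63, 14.7 and 18.1 CPM at D8, and 3.82, 3.56 and 4.53 CPM at D12. The D4 libraries lay close together in both batches, and D12 was back near the level of D0 though still above it. The log2 change was 2.83 ± 0.49 at D4 (adjusted p = 0.0046), 2.54 ± 0.48 at D8 (0.0083) and 0.71 ± 0.45 at D12 (0.37). Both calls were lost without D0 replicate 2, at adjusted p of 0.054 and 0.076.

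Sp5, a zinc-finger transcription factor and direct Wnt target, was almost silent throughout. It lies on chromosome 2 (70312980 to 70315786) and had no count in either D0 library, where 3 counts over the group would be 0.0347 CPM. It had 0.0376, 0.122 and 0 CPM at D4, 0.0926, 0.487 and 0.541 CPM at D8, and 0.201, 0.0815 and 0.0731 CPM at D12. These values rest on 7 counts at D4, 52 at D8 and 14 at D12 in all. The pooled D8 level was 11.7-fold that of D0 taken at that floor, with no error allowed for the D8 counts. The 2-sided 95% limits for counting error were 0.303 CPM from below at D8 and 0.0427 CPM from above at D0. The D8 test passed with an adjusted p of 0.043. That call was kept in 12 of 22 alternative fits and was lost without either D0 library (0.19 and 0.17). Between treated days, the ratio of D8 to D4 was 6.69 with a 95% interval of 3.03 to 17.4 that covers counting error only, and the test between these days did not pass (adjusted p = 0.58).

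Lgr5, the R-spondin receptor known as a marker of cycling epithelial stem cells, went the other way. It lies on chromosome 10 (114887367 to 115024836). It had 25.1 and 243 CPM at D0, 1.81, 4.26 and 3.4 CPM at D4, 1.23, 1.23 and 1.13 CPM at D8, and 4.93, 0.516 and 0.901 CPM at D12. Every treated library was below both D0 libraries, but these differed from each other by nearly an order of magnitude. The D0 library with the higher level, replicate 2, is also the one with 3660 CPM of myeloid markers, and the part of those cells in the Lgr5 level was not tested. The log2 change was -5.39 ± 1.12 at D4 (adjusted p = 0.012), -6.80 ± 1.20 at D8 (0.0055) and -5.98 ± 1.15 at D12 (0.0067). Within batches it was -3.79, -4.34 and -2.35 at D4, D8 and D12 in batch 1, and -5.98, -7.69 and -8.42 in batch 2. Without D0 replicate 2 the D4 change was -2.98 with an adjusted p of 0.15 and the D12 change -3.57 with 0.074, while at D8 the call held in all 25 alternative fits.

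The ubiquitin ligases Rnf43 and Znrf3, which clear Frizzled receptors from the cell surface and are themselves held back by R-spondins, were not called at any treated day. Znrf3 (chromosome 11, 5176327 to 5344850) had 11.8 and 18.9 CPM at D0, 20.0, 25.0 and 20.5 CPM at D4, 25.6, 23.3 and 35.7 CPM at D8, and 37.6, 15.8 and 15.7 CPM at D12. The D4 and D8 libraries were above both D0 libraries, with log2 changes of 0.51 ± 0.38 (adjusted p = 0.51) and 0.88 ± 0.39 (0.21), and at D12 the groups overlapped. Rnf43 was low, at 0.354 and 1.17 CPM at D0, 0.527 to 1.06 CPM at D4, 0.340 to 1.62 CPM at D8 and 0.136 to 0.276 CPM at D12. Its log2 change from D0 was 0.12 ± 0.92 at D4, 0.27 ± 0.92 at D8 and -1.73 ± 0.94 at D12.

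Nkd1, an antagonist that binds Dishevelled, was likewise not called. It had 7.46 and 18.7 CPM at D0, 7.12 to 18.1 CPM at D4, 9.54 to 24.1 CPM at D8 and 5.31 to 8.87 CPM at D12, with overlap with D0 on each day. Its log2 change of -0.01 ± 0.54 at D4 became 0.08 under upper-quartile scaling, so no direction is given. Notum, a secreted enzyme that inactivates Wnt ligands by removing their lipid, had 5 counts in all at D0, 17 at D4, 49 at D8 and 33 at D12. The ratio of counts pooled over libraries to D0 was 2.55 at D4 (95% interval 0.903 to 8.84), 6.61 at D8 (2.65 to 21.3) and 4.85 at D12 (1.88 to 15.9), for counting error alone. At D8, replicate 2 held 35 of the 49 counts. Replicate 1 of D8 had 2 counts (0.0618 CPM) and lay below D0 replicate 2 (0.104 CPM). None passed the test, with adjusted p of 0.62, 0.24 and 0.27 at D4, D8 and D12.

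**Figure D2:**
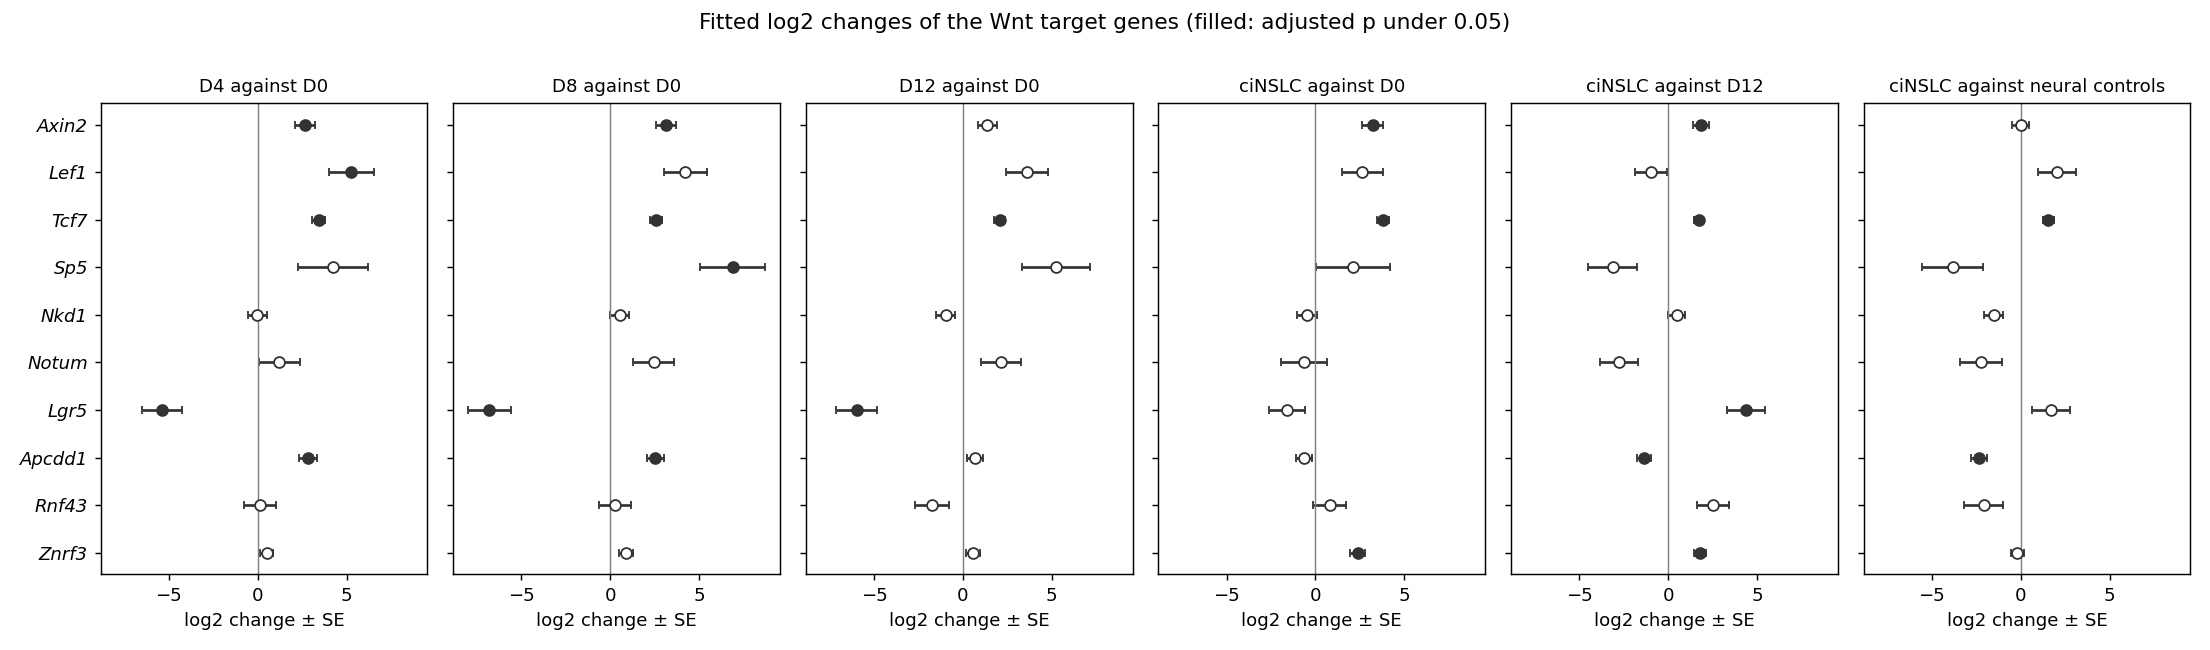
Fitted log2 change of each gene with its standard error in 6 comparisons, the first-named group over the second, where filled circles passed an adjusted p of 0.05. Tcf7 is filled in all 6 panels, and Lgr5 lies at -5.39, -6.80 and -5.98 in the panels for D4, D8 and D12.

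Between successive treated days no member was called. In D8 against D4, 0 of 10 passed in edgeR, 2 had an unadjusted p under 0.05 (Tcf7 lower and Sp5 higher), and DESeq2 and limma voom called 0. Of all genes 0.16% were called higher and 0% lower. In D12 against D8, 0 of 10 passed in edgeR, 4 had an unadjusted p under 0.05 (Axin2, Nkd1, Apcdd1 and Rnf43, all lower), DESeq2 called 2 and limma voom 1. Of all genes 0.0917% were called higher and 0.0687% lower. The median log2 change over the members was 0.26 in D8 against D4, where that of all genes was -0.01, and -1.05 in D12 against D8, where that of all genes was 0. Axin2 averaged 8.63 ± 1.68 CPM at D12 and 29.7 ± 12.1 CPM at D8 (SD, n = 3 each), a log2 difference of -1.78 ± 0.46 with an adjusted p of 0.14. Apcdd1 averaged 3.97 ± 0.50 CPM at D12 and 14.1 ± 4.25 CPM at D8, a difference of -1.83 ± 0.40 with an adjusted p of 0.080. The batches differed in size of change. The raw log2 difference of D12 from D8 was -0.654 in batch 1 and -2.21 in batch 2 for Axin2. It was -0.105 and -2.05 for Nkd1, and -1.33 and -2.02 for Apcdd1. In a fit of the batch 2 libraries alone, added after the data had been seen, Axin2 (-2.21, adjusted p = 0.0052), Nkd1 (-2.06, 0.0052) and Apcdd1 (-2.03, 0.035) passed in D12 against D8.

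In the ciNSLCs, Axin2, Tcf7 and Znrf3 rose against D0 and none fell, 3 and 0 of 10, where 11.7% of all genes were called higher and 16.5% lower. DESeq2 and limma voom each called 3 members, and 4 had an unadjusted p under 0.05 in edgeR. Against D12, Axin2, Tcf7, Lgr5 and Znrf3 rose and Apcdd1 fell, 4 and 1 of 10, where 11% of all genes were called higher and 16.5% lower. The median log2 change over the members was 1.45 against D0 and 1.1 against D12, where that of all genes was -0.07 and -0.09. Sp5 had 1 count in ciNSLC and none at D0, too few for a fold, and without it the median over the other 9 was 0.79 against D0 and 1.72 against D12. The 3 ciNSLC libraries carry different codes in their descriptions, and the third was the outlying one in several members.

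Znrf3 had 65.0, 99.3 and 75.9 CPM in ciNSLC, against 37.6, 15.8 and 15.7 CPM at D12 and 11.8 and 18.9 CPM at D0. All 3 ciNSLC libraries were above every fibroblast-derived library of the treatment course. The log2 change was 2.38 ± 0.42 against D0 (adjusted p = 0.00093) and 1.80 ± 0.35 against D12 (0.0023). Tcf7 had 27.3, 32.6 and 22.1 CPM in ciNSLC, a log2 change of 3.78 ± 0.34 against D0 (8.4e-06) and of 1.72 ± 0.27 against D12 (0.00052). Axin2 had 19.2, 24.8 and 49.5 CPM in ciNSLC, a log2 change of 3.22 ± 0.58 against D0 (0.0012) and of 1.85 ± 0.46 against D12 (0.011). For Axin2, Tcf7 and Znrf3 the call against D0 held in all 25 alternative fits.

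Lgr5 had 16.6, 16.9 and 98.8 CPM in ciNSLC, against 4.93, 0.516 and 0.901 CPM at D12, a log2 change of 4.38 ± 1.04 with an adjusted p of 0.0081. The ciNSLC libraries were all above those of D12 and overlapped those of D0, from which the change of -1.60 ± 0.99 was not called (adjusted p = 0.27). Lef1 had 0.976, 1.51 and 11.1 CPM in ciNSLC, so that the third library was close to the higher D12 libraries and the other two near the D0 level. Its change was 2.64 ± 1.14 against D0 (adjusted p = 0.11) and -0.96 ± 0.90 against D12 (0.47), and without ciNSLC replicate 3 the change against D12 was -2.78 with 0.040. Rnf43 had 0.465, 0.356 and 3.11 CPM in ciNSLC, again with the third library high, and reached an adjusted p of 0.051 against D12.

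Apcdd1 had 1.86, 2.23 and 0.542 CPM in ciNSLC, against 3.82, 3.56 and 4.53 CPM at D12, a log2 change of -1.37 ± 0.41 with an adjusted p of 0.025. That call was kept in 20 of 25 alternative fits. Notum had 0.0929, 0 and 0 CPM in ciNSLC, or 4 counts in all, and the ratio of D12 to ciNSLC was 6.66 (95% interval 2.37 to 25.9, counting error only), with an adjusted p of 0.072 in the test. Sp5 had 1 count over the 3 ciNSLC libraries. Nkd1 had 5.58, 8.05 and 14.6 CPM in ciNSLC, which overlapped both D12 and D0.

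Set against the neural controls, which were tested as 1 group of 2 unlike sources in a fit of 17636 genes, the ciNSLCs differed in 2 members. Tcf7 was higher, with 27.3, 32.6 and 22.1 CPM in ciNSLC against 8.32 CPM in SCR029 and 10.4 CPM in priNPC, a log2 change of 1.55 ± 0.31 (adjusted p = 0.025). Apcdd1 was lower, with 1.86, 2.23 and 0.542 CPM in ciNSLC against 10.2 CPM in SCR029 and 5.56 CPM in priNPC, a change of -2.35 ± 0.46 (0.024). That is 1 higher and 1 lower of 10, where 0.879% of all genes were called higher and 0.652% lower. The median over the members was -0.85, or -0.19 without Sp5, where that of all genes was -0.01. Both calls were lost with priNPC as the only control (adjusted p of 0.12 for Tcf7 and 0.11 for Apcdd1) and without ciNSLC replicate 1 (0.078 and 0.069).

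Axin2 and Znrf3 were at similar levels in the lines and in both controls. Axin2 had 31.8 CPM in SCR029 and 31.0 CPM in priNPC, within the range of ciNSLC, and the log2 difference of ciNSLC from the controls was -0.01 ± 0.48. Znrf3 had 103 CPM in SCR029 and 79.1 CPM in priNPC, and the difference was -0.19 ± 0.37. Neither interval shows that the levels are equal. The controls themselves differed in some members: Rnf43 had 10.8 CPM in SCR029 and 0.358 CPM in priNPC, and Sp5 had 0 counts in SCR029 and 16 in priNPC. Each of these is 1 library, so no test was made between them.

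Compared per kilobase of summed exon length, which allows levels to be set between genes, the order of the members changed over the course. At D0 Lgr5 had the highest mean level, 13 ± 15 CPM per kb (SD, n = 2), with a spread that covers the next gene, Nkd1 at 2.93 ± 1.78. At D4 Tcf7 led with 7.66 ± 1.58 CPM per kb (n = 3), followed by Apcdd1 at 6.18 ± 0.28, which lay within its spread. At D8 Axin2, Apcdd1, Tcf7 and Nkd1 ranged from 5.39 ± 2.19 down to 4.22 ± 1.81 CPM per kb and did not differ beyond their spread, and Lgr5 was last at 0.117 ± 0.006. At D12 Tcf7 had 2.98 ± 0.23 and Znrf3 2.92 ± 1.60 CPM per kb. In ciNSLC Znrf3 had 10.1 ± 2.22 and Tcf7 9.80 ± 1.88 CPM per kb, which overlapped, followed by Axin2 at 5.66 ± 2.93. In both controls Znrf3 was the highest member, at 13.1 CPM per kb in SCR029 and 10.0 CPM per kb in priNPC. Sp5 and Notum stayed under 0.2 CPM per kb in every group.

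The members did not move as one across the 16 libraries. Pearson's r of log2(CPM + 1), given as a description since the libraries share batches and the treatment course, was 0.71 between Axin2 and Tcf7 and 0.672 between Axin2 and Znrf3. Without the D0 libraries, the 2 farthest from the median of Axin2, these became 0.375 and 0.573. Lef1 correlated with Axin2 at 0.375, or 0.061 without the same libraries. Lgr5 correlated with Apcdd1 at -0.659, or -0.482 without D0 replicate 2 and ciNSLC replicate 3. Among 10827 genes that reached a mean of 5 CPM in a group, those most like Axin2 included Mccc1 (0.873), Foxo3 (0.873), Clic5 (0.868) and Rnf152 (0.859). For Tcf7 they were led by Fam70a (0.922), Cobll1 (0.909) and Tspan7 (0.894), for Lef1 by Exosc10 (0.886), Dsp (0.877) and Angptl7 (0.845), and for Apcdd1 by Vldlr (0.882), Ero1l (0.866) and Egln3 (0.865). Znrf3 was most like Mphosph9 (0.975), Nfia (0.974) and Lrp4 (0.962), Lgr5 most like Sirpa (0.923), Cdk14 (0.916) and Hfe (0.901), and Nkd1 most like Egln1 (0.849), Gltscr2 (0.844) and Evl (0.835). The likeness of Rnf43 to Mtrf1l (0.854), Cdk2 (0.852) and Tph2 (0.841) rested on SCR029 and the third ciNSLC library, without which it was 0.54, 0.048 and -0.062.

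The rest of the pathway was described from 7 lists of its components, counted with the same fits. Of all genes tested, 3.54% were called higher and 3.68% lower at D4, 4.1% and 3.05% at D8, 5.81% and 4.73% at D12, and 11.7% and 16.5% in ciNSLC, all against D0. A single call in a list of this size is therefore near the background and is not read as a result about the list. The Wnt ligands, with 14 of 19 tested, had 3 higher and 1 lower at D4, 3 and 1 at D8, and 4 and 1 at D12 against D0. Wnt2b averaged 12.6 ± 5.07 CPM at D4 and 0.927 ± 0.163 CPM at D0 (n = 3 and 2), a log2 change of 3.76 ± 0.43 (adjusted p = 0.00039). It was at 23.6 ± 7.96 CPM at D8 and 3.76 ± 0.76 CPM at D12, and it was the one listed gene called in D12 against D8 (log2 change -2.65 ± 0.34, adjusted p = 0.011). Wnt7b, at 0 in both D0 libraries, averaged 3.03 ± 3.20 CPM at D4 (adjusted p = 0.029). Wnt16 fell to 0.506 ± 0.179 CPM at D4, against 4.01 ± 2.84 CPM at D0 (log2 change -2.97 ± 0.66, adjusted p = 0.017). The receptors, with 12 tested, had 1 higher and 2 lower at D4 and 0 and 2 at both D8 and D12. The co-receptor Lrp6 was at 120.5 ± 13.5 CPM at D4 and 243 ± 43.3 CPM at D0 (log2 change -1.01 ± 0.20, adjusted p = 0.010), and Fzd5 changed by -1.62 ± 0.32 (0.010).

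The R-spondins, secreted ligands of the Lgr receptors that stabilise Frizzled by drawing off Rnf43 and Znrf3, moved in both directions. Of 6 genes (4 R-spondins, Lgr4 and Lgr6) 1 was higher and 2 were lower at D4 and at D8, and 1 and 3 at D12. Rspo2 fell to 0.345 ± 0.189 CPM at D4, against 82.6 ± 12.2 CPM at D0 (log2 change -7.83 ± 0.86, adjusted p = 0.00027). Rspo3 fell to 8.25 ± 1.02 CPM at D4, against 95 ± 26.7 CPM at D0 (-3.52 ± 0.46, 0.00087). Rspo4, at 0 in both D0 libraries, averaged 3.48 ± 2.43 CPM at D4 (adjusted p = 0.0015). In ciNSLC, Rspo2 and Rspo3 were at 0.0113 ± 0.0195 and 0.166 ± 0.157 CPM (n = 3), with adjusted p of 1e-05 and 1e-06 against D0. The summed fibroblast markers also differed, at 1130 to 7340 CPM at D4 and 19600 to 21600 CPM at D0. Col1a1, Col1a2, Col3a1, Pdgfrb and S100a4 were lower in every D4 library than in both D0 libraries. Twist2 was higher, at 14.1 to 16.3 CPM against 10.85 and 10.89 CPM, and Pdgfra and Thy1 overlapped. The part of fibroblast content in these losses was not tested.

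The secreted antagonists, with 10 of 13 tested, had 0 higher and 1 lower at D4, 2 and 1 at D8, 0 and 2 at D12, and 0 and 5 in ciNSLC against D0. At D8 Sostdc1 averaged 5.86 ± 4.00 CPM, against 0.393 ± 0.144 CPM at D0 (log2 change 3.89 ± 0.85, adjusted p = 0.016). In ciNSLC Dkk3, a divergent member of the Dickkopf family, averaged 2.65 ± 1.03 CPM against 265 ± 200 CPM at D0 (-6.65 ± 0.73, 3.2e-05). Sfrp1, which binds Wnt ligands, averaged 12.4 ± 5.93 CPM in ciNSLC against 484 ± 263 CPM at D0 (-5.29 ± 0.78, 0.00029). The cytoplasmic core, which holds beta-catenin itself (Ctnnb1), both Gsk3 genes, Apc and Axin1, was tested for all 12 genes, and the one called against D0 was Apc2, higher at D8, D12 and in ciNSLC. The nuclear partners had 1 of 11 higher and 0 lower in each comparison with D0, the co-repressor gene Tle1 at D4 and Tle4 at D8, D12 and in ciNSLC.

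A further 15 genes reported as targets in other tissues, of which 12 were tested, had 1 higher and 1 lower at D4, 3 and 0 at D8, 4 and 0 at D12, and 4 and 3 in ciNSLC against D0. Ascl2, a Wnt-responsive transcription factor of intestinal stem cells, averaged 1.75 ± 0.80 CPM at D4 and 0.0130 ± 0.0184 CPM at D0 (log2 change 6.86 ± 1.49, adjusted p = 0.015). Tnfrsf19 rose at D8, to 10.3 ± 2.35 CPM against 0.951 ± 0.128 CPM at D0 (3.43 ± 0.72, 0.014), and stood at 61.5 ± 27.4 CPM in ciNSLC (6.01 ± 0.82, 0.00016). Wisp1 fell to 61.1 ± 18.3 CPM at D4, against 330 ± 64.1 CPM at D0 (-2.43 ± 0.57, 0.022). The median log2 change over these 12 genes was -0.28 at D4, where that of all genes was 0.02. Among the 6 epithelial markers, Krt18 and Krt19 held most of a sum of 83 to 168 CPM at D4, 40.8 to 108 CPM at D8 and 3.1 to 4.67 CPM at D0, while Epcam was at most 1.31 CPM and Cdh1 at most 0.964 CPM in any library.

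**Figure D3:**
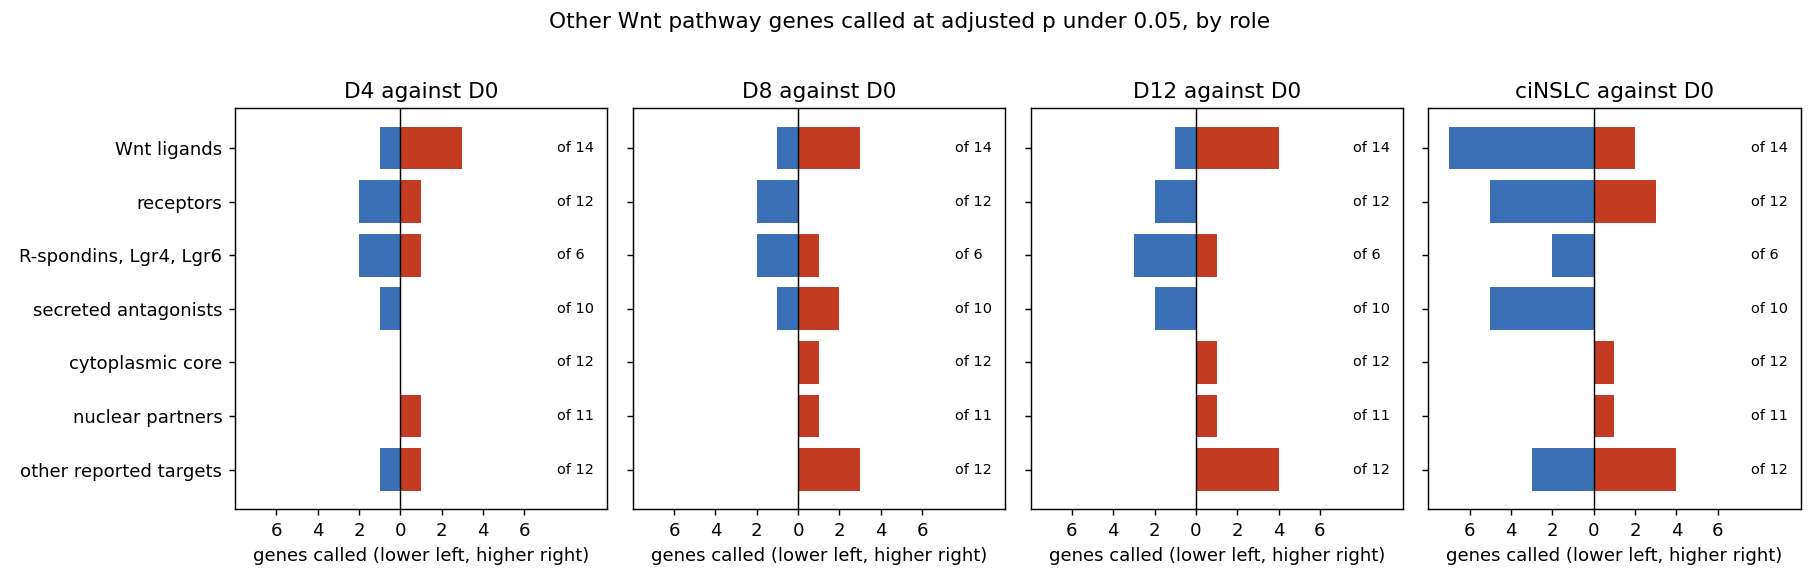
Number of other Wnt pathway genes called lower (left of 0) and higher (right of 0) at an adjusted p under 0.05 in 4 comparisons with D0, by role, with the number tested beside each bar. The ciNSLC panel holds the most lower calls, with 7 of 14 ligands, 5 of 12 receptors and 5 of 10 secreted antagonists. The same panel has 2 ligands, 3 receptors and 0 secreted antagonists called higher. In that comparison 16.5% of all genes were called lower and 11.7% higher.

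Some rows of the table overlap other annotated genes, and strandedness of the counting is not given in the sources used here. The overlapping row at Axin2 had at most 18 counts in a library, where Axin2 had 1119, and that at Lgr5 at most 23 counts, where Lgr5 had 2918. At Tcf7 the row Gm16953, on the same strand, was not small at D0: it had 54 and 19 counts, where Tcf7 had 124 and 53. In the D4 libraries it had 56, 33 and 21 counts, where Tcf7 had 436, 1225 and 898. The low D0 level of Tcf7 is uncertain in that respect. At Notum the overlapping rows had at most 4 counts in a library, in D8 replicate 2, where Notum had 35. The low level of Notum is likewise uncertain.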

How the data were processed

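RNA was amplified from total RNA with random and poly-T primers, per the labels' protocols, and the submitters' processing notes name TopHat2 2.0.13, the mm9 build, featureCounts and edgeR. The authors deposited raw counts per gene and a summed exon length in bases; these counts entered every fit, and 48 columns of normalized values were not used. Rows without a symbol held at most 0.151% of a library, and mitochondrial rRNA 14.3% to 53%. edgeR 4.0.16 in R 4.3.3 was run with its default low-count filter, TMM scaling and a robust quasi-likelihood model of the groups without covariates, on the 14 libraries of D0 to ciNSLC and on all 16 for the controls. Levels are TMM-scaled CPM. SE is the log2 change over the root of F. A count of 0 allows 3 counts at 95% confidence, and intervals cover counting error only. Since no label ties replicates to separate cultures, the spread behind each p-value may be only technical. Alternatives (scaling, filter, DESeq2 1.42.0, limma 3.58.1 voom, batch, replicate block, libraries left out) follow in the closing section. Only the edgeR test of D4 against D0 was run on simulated counts, with the same spread for every gene. The members and lists were chosen with earlier results of these data known. All members are named, with at most 3 genes per list and comparison; some genes that the rules select are not reported here.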

Additional observations from a re-analysis of the deposited data

Results flagged for a closer look

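Apcdd1 lay on opposite sides of the D0 mean in the ciNSLCs and in the treated cells. It averaged 1.54 CPM in ciNSLC and 17.3, 14.1 and 3.97 CPM at D4, D8 and D12, with 2.42 CPM at D0, and every library of the treated days lay above the D0 mean while every ciNSLC library lay below it. The log2 difference was -3.49 for ciNSLC against D4 (edgeR adjusted p = 7.3e-05), -3.20 against D8 (0.00015) and -1.37 against D12 (0.025). The gene was picked because its libraries lay on opposite sides of the D0 mean. The direction and separation were therefore fixed by that choice, and these p-values are no further support. The comparisons with D4 and D8 were made for this section only. The change of ciNSLC from D0 itself was not called (-0.66, adjusted p = 0.31).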

How the results depend on the processing

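Of the 80 log2 changes of the members, 22 were called, and 10 of these were called in every alternative run, among them every call of Tcf7 except that against the neural controls. DESeq2 gave no adjusted p for Lef1, and in some settings none was had for Sp5 or Notum after the filter. The cause of the changes below was not tested.

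Counts of members moved as follows. In D4 against D0, lower calls numbered 0 with no filter on low counts. In D12 against D0, higher calls numbered 3 with a batch term and 2 in batch 2 alone, and lower calls 2 in batch 2 alone and 0 with only the groups compared. In D12 against D8, lower calls numbered 2 with a batch term, 2 with DESeq2, 1 with limma voom and 3 in batch 2 alone. In ciNSLC against D12, lower calls numbered 2 with limma voom, 2 in batch 2 alone and 0 with only the groups compared. Against the neural controls, higher calls numbered 0 and lower calls 0 with only the groups compared and with priNPC alone, and lower calls 2 with a batch term. The fit on batch 2 alone was added after the data had been seen.

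The replicate numbers were not taken to pair the libraries. The correlation of their deviations was over 0.1 in 10 of 10 pairs of number 1, which share batch 1, in 8 of 10 pairs of number 2 and in 3 of 6 of number 3. Numbers 2 and 3 share batch 2. Between D4 and D8, unlike numbers gave 0.709 and 0.688, and like numbers 2 and 3 gave 0.397 and 0.422. The reverse held for D4 replicate 2, at 0.423 with ciNSLC replicate 2 and -0.006 with replicate 3. With 2 D0 libraries, their deviations mirror each other. With a replicate block, higher calls in D12 against D0 numbered 2, Lef1 passed at D8 (adjusted p = 0.0076) and D12 (0.018), Sp5 at D8 did not (0.061), and Rnf43 changed sign to -0.19 at D4, -0.30 at D8 and -0.11 in D8 against D4.

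Leaving out 1 library at a time gave 1 to 4 higher and 0 to 1 lower calls in D4 against D0, 2 to 5 higher in D8 against D0 (2 without either D0 library), 1 to 2 higher and 0 to 1 lower in D12 against D0, 0 to 1 lower in D12 against D8, 0 to 2 lower in ciNSLC against D12, and 0 to 1 higher and 0 to 1 lower against the neural controls. In ciNSLC against D12 the lower call of Apcdd1 was lost without D12 replicate 2 or 3, or ciNSLC replicate 1 or 3. Lone D0 libraries are assumed to vary like the other groups.

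Signs turned only in changes that were not called. Nkd1 in D4 against D0 was 0.01 with a filter at 1 CPM in 2 libraries, 0.10 with limma voom and 0.08 with upper-quartile scaling, and ran from -0.53 to 0.79 over left-out libraries. Rnf43 was -0.06 in D8 against D4 with limma voom, -0.23 in D4 against D0 in batch 2 alone, and against the controls 1.83 with priNPC alone and 2.27 in batch 2 alone. Sp5 against SCR029 alone was 2.11, and Notum in D12 against D8 was 0.13 with limma voom. In batch 2 alone Axin2 and Znrf3 against the controls were 0.24 and 0.14, Lgr5 in D12 against D8 -0.73 and Znrf3 in D12 against D0 -0.23. Over left-out libraries Axin2 against the controls ran from -0.51 to 0.20, Lgr5 from -2.93 to 0.81 in ciNSLC against D0 and from -0.75 to 1.28 in D12 against D8, Nkd1 from -0.99 to 0.33 in ciNSLC against D0, and Notum from -4.28 to 0.77 in ciNSLC against D0 and from -0.77 to 0.70 in D12 against D8. Rnf43 ran from -0.50 to 1.22 in D4 against D0, -0.42 to 1.37 in D8 against D0, -0.55 to 0.52 in D8 against D4 and -0.81 to 1.88 in ciNSLC against D0. Upper-quartile scaling moved the median of all genes against D0 to 0.119 at D4, 0.116 at D8 and 0.112 at D12. Group means of the members were 0.768 to 1.28 times the TMM-scaled ones over raw totals, and 1.41 to 1.67 times without mitochondrial rRNA. Sp5, Notum and Rnf43 are limited by depth, at 90, 122 and 829 counts over 16 libraries.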
